A study of Homo sapiens with 8 samples.

Results

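Genes of bone morphogenetic protein (BMP) and transforming growth factor beta (TGF-beta) signalling were followed in DAOY cells, an established human medulloblastoma line. A gene was taken if it stood on a list of 49 symbols, and it was read by the array probes whose platform annotation gave that symbol. Of the 49, 48 had a probe, 65 probes in all, and 46 passed the filter on dim probes, among 12162 genes tested. BMPR1A had no probe in the annotation used here, and the probes of BMPR1B and NOG were detected on none of the 8 arrays. Of the 46 genes, 40 were detected on all 8 arrays, and INHBB passed the filter through MXD3 lines only.

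Ligands of this family bind pairs of type I and type II receptor kinases, which phosphorylate receptor SMAD proteins. SMAD1, SMAD5 and SMAD9 carry the BMP branch, SMAD2 and SMAD3 carry the TGF-beta and activin branch, and both branches use SMAD4 as a partner at target genes. In the developing cerebellum BMP ligands are known to oppose the growth of granule cell precursors, from which some medulloblastomas arise.

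The MXD3 group held 5 numbered DAOY lines that stably carried pHM6-MXD3. The vector group held 2 numbered lines with the pHM6 plasmid alone. The 7 stable lines were kept in 800 µg/ml G418, and the last sample was 1 array of parental DAOY cells. The 2 vector lines and the parental cells are called the 3 controls below. MXD3 is a transcription factor that pairs with MAX and represses genes at the E-box that MYC and MAX also bind. The labels name neither what drives MXD3 from the plasmid nor whether a line was 1 clone, so the p-values below measure only the spread between these samples, which may be technical.

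On each array 60.5% to 64.0% of 22184 probes had a detection p-value below 0.05. The probe for MXD3 read 7.47, 7.22, 6.98, 8.08 and 6.18 in MXD3 lines 1 to 5, 6.93 and 6.71 in vector lines 1 and 2 and 6.59 in the parental cells on the log2 intensity scale, the scale of all values below. On this probe every control exceeded the array labelled MXD3 line 5, whose place in the group rests on its label. The MXD3 lines differed on it by 0.44 ± 0.35 (SE) from the 3 controls (adjusted p = 0.647, limma). From the vector lines the difference was 0.37 ± 0.42 (adjusted p = 0.847), so a higher MXD3 level in the group was not shown. Of 12 markers of granule precursors and neural stem cells, 6 were detected on all 8 arrays (PAX6, ZIC2, MEIS1, SOX2, VIM and GLI2) and 5 on none (ATOH1, ZIC1, BARHL1, NES and GLI1). Of the blood and endothelial markers CD14, HBB and CDH5 were detected on none and TIE1 on all 8 arrays, and of the epithelial markers KRT5, KRT14, KRT19 and CLDN4 on none and KRT8 and KRT18 on all 8. In bulk RNA, fewer cells that express a gene and less of its RNA per cell cannot be told apart.

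The first comparison set the MXD3 lines against the 3 controls. SMAD3 and FSTL1 had higher means in the MXD3 lines, and BMP7, SMAD1 and INHBE had lower means, each at an unadjusted p below 0.05. None of the 46 genes passed limma's test at an adjusted p below 0.05, and neither did any of the 12162 genes tested (0%). The 5 genes with an unadjusted p below 0.05 were 10.9% of the 46, against 11.7% of all genes, so their share lay near the background. By direction, 4.35% were higher (background 6.13%) and 6.52% lower (background 5.57%). The median log2 difference was 0.023 over the 46 genes and 0.0037 over all genes. The 5 MXD3 lines and the 3 controls did not overlap for 2 genes, BMP7 and SMAD1, or 4.35%, against 7.98% of all genes (3.84% with the MXD3 lines higher and 4.14% with them lower). Without MXD3 line 1 the genes at an unadjusted p below 0.05 were 8 of 46 (17.4%, all genes 14.3%), and without the array labelled line 5 they were 5 of 46 (10.9%, all genes 10.9%).

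Against the vector lines alone, BMP7, INHBA, INHBE, SMAD1 and SMAD3 had an unadjusted p below 0.05 and none passed limma's adjusted threshold (background 0%). These 5 genes were 10.9% of the 46, against 7.75% of all genes. Higher means made up 4.35% (background 3.83%) and lower means 6.52% (background 3.91%). The groups did not overlap for 4 genes (BMP7, SMAD1, INHBA and CHRD), 8.7% against 13.2% of all genes (6.59% higher and 6.62% lower). At an unadjusted p below 0.05 there were 2 of 46 (4.35%, all genes 6.38%) without MXD3 line 4, 3 of 46 (6.52%, all genes 4.32%) without vector line 2 and 4 of 46 (8.7%, all genes 7.7%) without the array labelled line 5. Both comparisons use the same MXD3 and vector arrays.

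**Figure D1:**
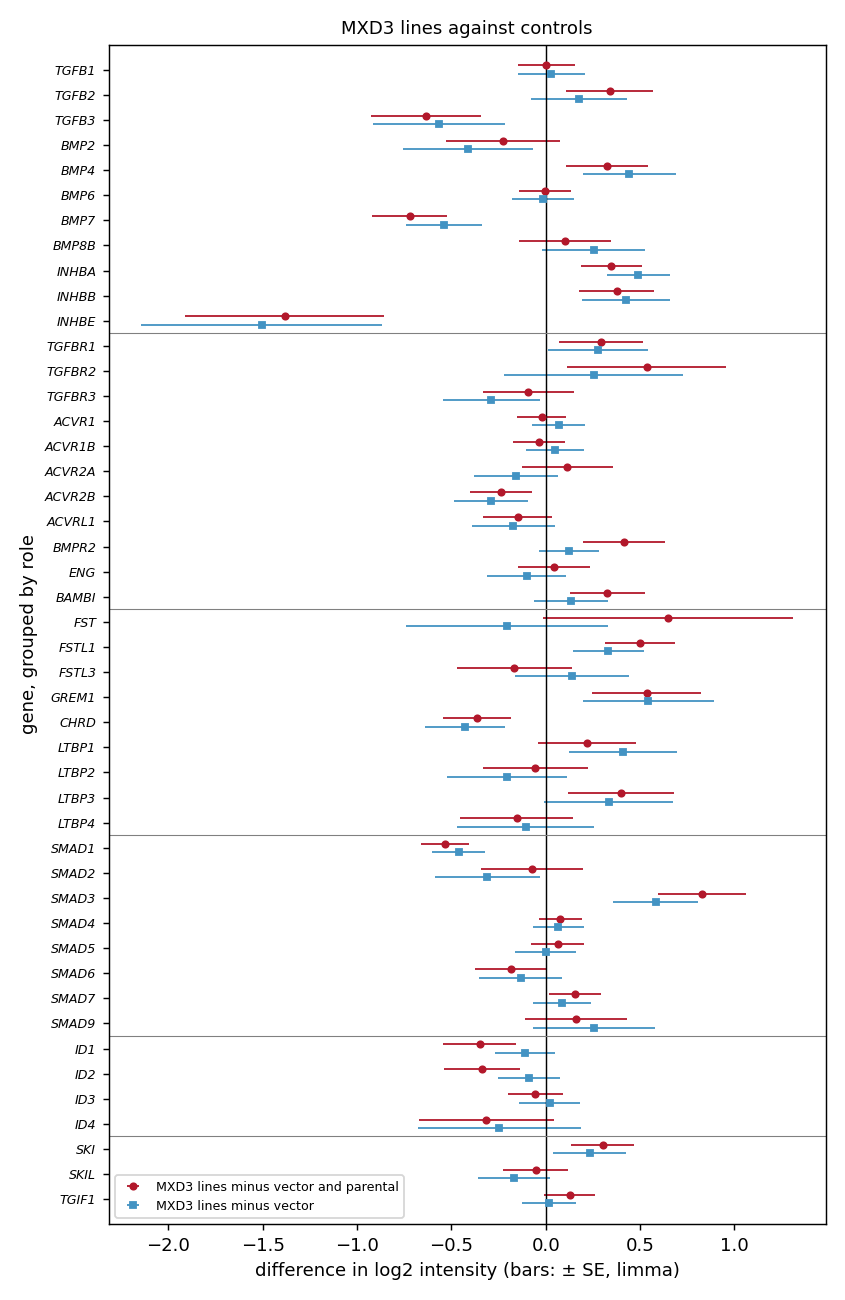
Difference in log2 intensity between the 5 MXD3 lines and the 3 controls, and between the 5 MXD3 lines and the 2 vector lines, for the 46 signalling genes grouped by role, with bars of ± 1 SE from limma. Against the 3 controls INHBE lies farthest below 0, at -1.38, and SMAD3 farthest above it, at 0.83.

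**Figure D2:**
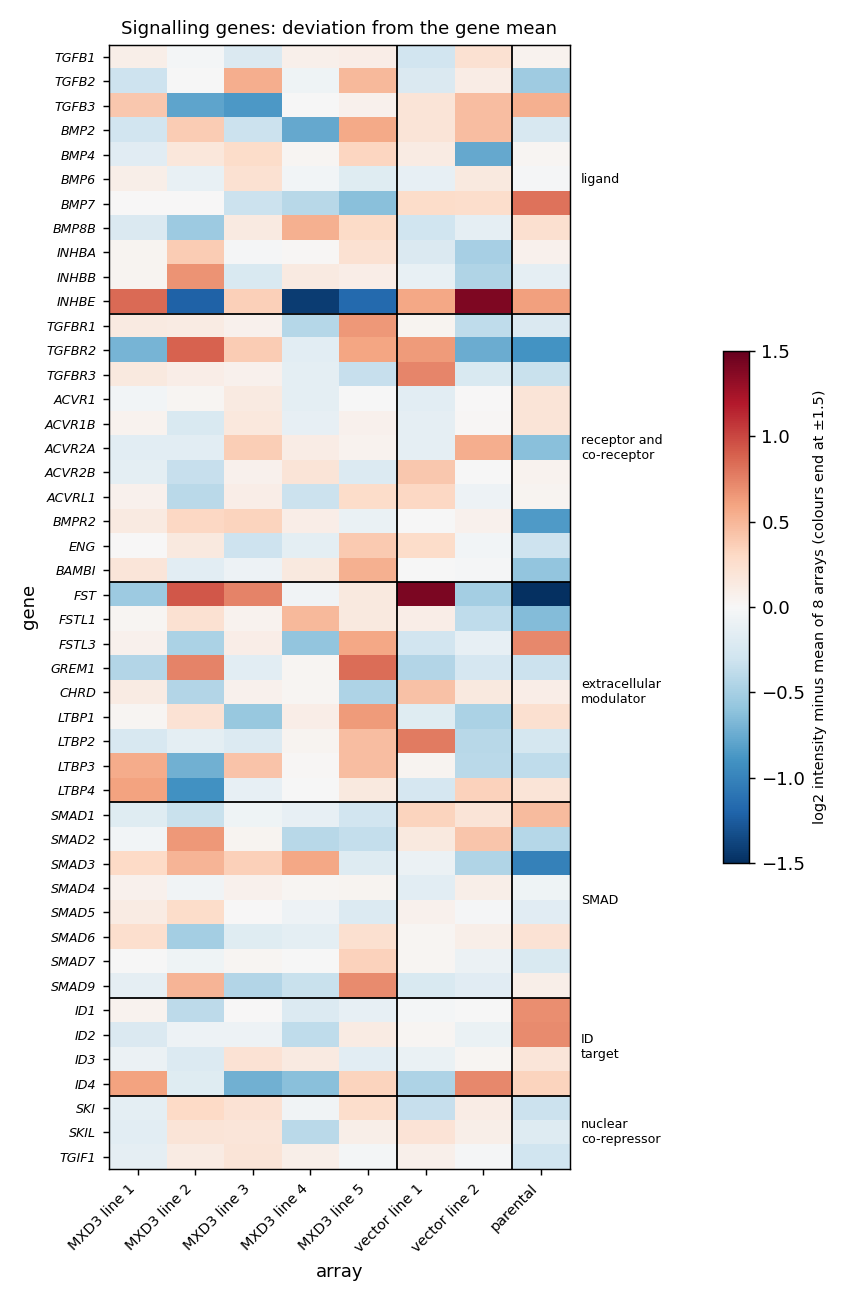
Log2 intensity of each signalling gene minus its mean over the 8 arrays, with the 5 MXD3 lines, the 2 vector lines and the parental cells in columns and genes in rows by role. Colours end at ± 1.5, and the parental column stands apart for FST, BMPR2, SMAD3, ID1 and ID2.

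Among the 11 ligands, BMP7 and INHBE had the lowest p-values against the 3 controls. BMP7, a BMP that signals through SMAD1, SMAD5 and SMAD9, read 9.78, 9.77, 9.44, 9.35 and 9.14 in MXD3 lines 1 to 5, 10.04 and 10.03 in vector lines 1 and 2 and 10.58 in the parental cells. All 5 MXD3 lines lay below both vector lines, and the parental cells had the highest value. The difference was -0.72 ± 0.20 (SE) from the 3 controls (adjusted p = 0.288, limma) and -0.54 ± 0.20 from the vector lines (adjusted p = 0.596). With each array left out in turn it ran from -0.81 to -0.54 and from -0.61 to -0.45.

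INHBE, which encodes the inhibin beta E chain of the activin family, divided the MXD3 lines. It read 9.39, 7.32, 8.90, 7.12 and 7.37 in MXD3 lines 1 to 5, 9.11 and 9.94 in vector lines 1 and 2 and 9.15 in the parental cells. MXD3 lines 2, 4 and 5 lay below every control, line 1 lay among the controls and line 3 just below them. MXD3 lines averaged 8.02 ± 1.05 (SD, n = 5) for INHBE, against 9.40 ± 0.46 (SD, n = 3) for the controls. The difference was -1.38 ± 0.53 (SE) from the 3 controls (adjusted p = 0.360, limma) and -1.51 ± 0.64 from the vector lines (adjusted p = 0.631). Against the 3 controls its unadjusted p was above 0.05 without MXD3 line 2, 4 or 5 and without vector line 2.

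INHBA encodes the beta A chain of activin A. It read 6.58, 6.93, 6.52, 6.57 and 6.77 in MXD3 lines 1 to 5, 6.33 and 6.04 in vector lines 1 and 2 and 6.61 in the parental cells. The MXD3 lines lay above both vector lines and on either side of the parental cells. The difference was 0.49 ± 0.17 (SE) from the vector lines (adjusted p = 0.587, limma) and 0.35 ± 0.16 from the 3 controls (adjusted p = 0.446). Without background correction these differences were 0.19 and 0.13, with the unadjusted p against the vector lines above 0.05, and without vector line 2 they were 0.35 and 0.21. INHBB, the beta B chain, was detected in 4 of 5 MXD3 lines and was not above background in any of the 3 controls. Since INHBB entered the analysis through the MXD3 lines alone, no p-value of its own is given. Its measured means of 5.86 in the MXD3 lines and 5.48 in the controls are a description. The gene remains among the 46 that were fitted, counted and drawn in the figures.

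The 3 TGF-beta ligands had unadjusted p-values above 0.05. TGFB2 read 8.46, 8.77, 9.31, 8.70 and 9.26 in MXD3 lines 1 to 5, 8.56 and 8.89 in vector lines 1 and 2 and 8.24 in the parental cells. MXD3 lines 3 and 5 lay above all controls and the other 3 lines lay among them, a difference of 0.34 ± 0.23 (SE, adjusted p = 0.584, limma). TGFB3 ran from 7.54 to 8.82 in the MXD3 lines and from 8.60 to 8.95 in the controls, with only MXD3 line 1 inside the control range and a difference of -0.64 ± 0.29 (adjusted p = 0.439). MXD3 lines averaged 6.41 ± 0.13 (SD, n = 5) for TGFB1, against 6.40 ± 0.26 (SD, n = 3) for the controls.

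BMP4, a ligand of neural and mesenchymal development, read 8.76, 9.10, 9.20, 8.96 and 9.25 in MXD3 lines 1 to 5, 9.05 and 8.17 in vector lines 1 and 2 and 8.96 in the parental cells. Vector line 2 was the low array. The difference from the vector lines was 0.44 ± 0.25 (SE, adjusted p = 0.700, limma), 0.89 without vector line 1 and 0.00028 without vector line 2. BMP2 ran from 7.08 to 8.41 in the MXD3 lines and from 7.61 to 8.31 in the controls. BMP8B was detected in 2 of 5 MXD3 lines, in neither vector line and in the parental cells.

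The probes of BMP6, a BMP that also regulates iron balance, did not follow each other. The probe that stood for the gene stayed between 13.32 and 13.73 on all 8 arrays. The other, detected on 7 arrays, read 6.55, 7.35, 7.84, 6.19 and 9.29 in MXD3 lines 1 to 5, 6.64 and 5.21 in vector lines 1 and 2 and 6.87 in the parental cells, with the array labelled MXD3 line 5 highest and vector line 2 lowest. Its difference from the 3 controls was 1.20, against -0.0048 for the brighter probe.

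**Figure D3:**
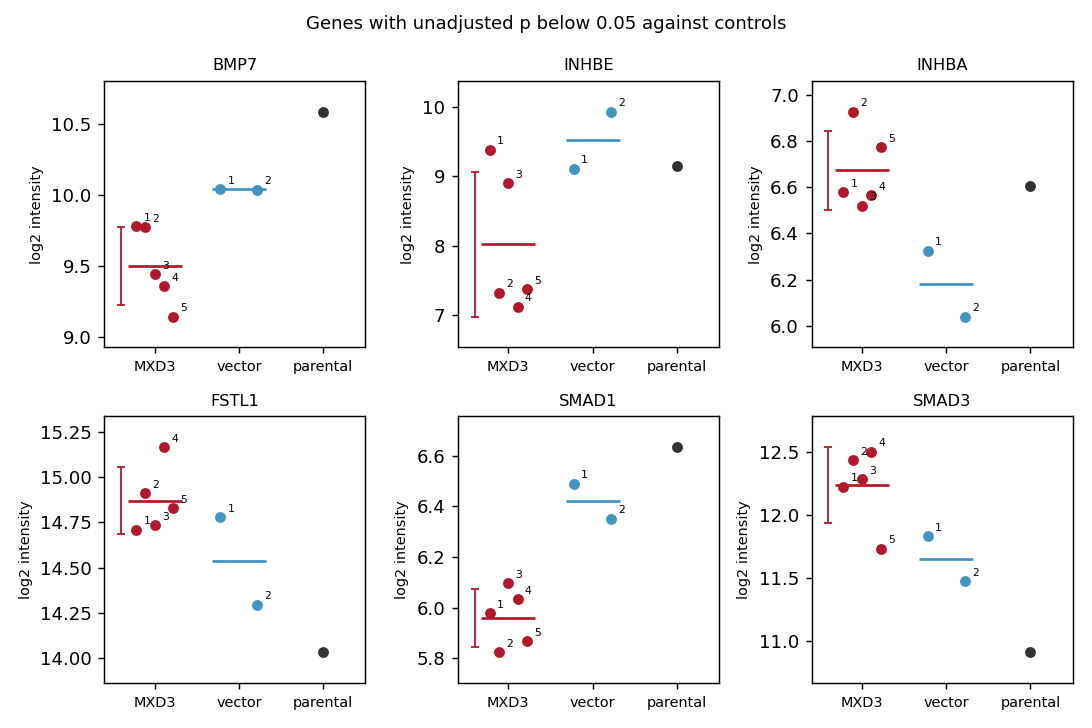
Log2 intensity of the 6 signalling genes with an unadjusted p below 0.05 in at least 1 of the comparisons of the MXD3 lines with the 3 controls or with the vector lines, 1 point per array with its line number. Horizontal lines are group means and the bar at the left is ± 1 SD of the MXD3 lines. BMP7 and SMAD1 show no overlap between the MXD3 lines and the controls, and for INHBE 2 MXD3 lines lie near the controls and 3 lie below them.

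Among the 11 receptors and co-receptors tested, none reached an unadjusted p below 0.05 in either comparison. TGFBR2, the type II receptor of TGF-beta, had the widest range of them. It read 9.89, 11.47, 10.96, 10.43 and 11.18 in MXD3 lines 1 to 5, 11.22 and 9.85 in vector lines 1 and 2 and 9.69 in the parental cells. Vector line 1 lay among the high MXD3 lines, while vector line 2 and the parental cells lay below all 5 MXD3 lines. The difference from the vector lines was 0.25 ± 0.47 (SE, adjusted p = 0.905, limma), 0.94 without vector line 1 and -0.43 without vector line 2.

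TGFBR1, the type I receptor of TGF-beta, ran from 6.95 to 8.03 in the MXD3 lines and from 7.000 to 7.42 in the controls. ACVR1 and ACVR1B, type I receptors for BMPs and activins, varied by only 0.35 and 0.42 over the 8 arrays. The activin type II receptors ACVR2A and ACVR2B differed by 0.12 ± 0.24 and -0.24 ± 0.16 (SE) from the 3 controls. None of these receptors separated the MXD3 lines from the controls. TGFBR3, a co-receptor that presents TGF-beta, ran from 8.15 to 8.65 in the MXD3 lines and from 8.16 to 9.23 in the controls, and ENG, the co-receptor endoglin, from 9.25 to 9.95 and from 9.25 to 9.84 in the same groups. ACVRL1, a type I receptor best known from endothelium, was detected in 3 of 5 MXD3 lines, 1 of 2 vector lines and the parental cells.

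Secreted modulators hold ligands back: FST and FSTL3 bind activins, and GREM1 and CHRD bind BMPs. FST had the widest range of the 46 genes, 3.53 over the 8 arrays. It read 9.01, 10.48, 10.30, 9.51 and 9.70 in MXD3 lines 1 to 5, 10.97 and 9.04 in vector lines 1 and 2 and 7.44 in the parental cells. The parental cells were lowest, vector line 1 was highest and vector line 2 lay at the lower end of the MXD3 range. The difference was 0.65 ± 0.66 (SE) from the 3 controls (adjusted p = 0.725, limma) and -0.20 ± 0.54 from the vector lines (adjusted p = 0.932), which was 0.76 without vector line 1 and -1.17 without vector line 2.

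FSTL1, a secreted glycoprotein known to bind BMP ligands, read 14.71, 14.91, 14.73, 15.17 and 14.83 in MXD3 lines 1 to 5, 14.78 and 14.30 in vector lines 1 and 2 and 14.04 in the parental cells. MXD3 lines 2, 4 and 5 lay above all controls, and lines 1 and 3 lay between the vector lines. The difference was 0.50 ± 0.18 (SE) from the 3 controls (adjusted p = 0.357, limma) and 0.33 ± 0.19 from the vector lines (adjusted p = 0.705). Without vector line 2 these differences were 0.46 and 0.091.

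GREM1, which encodes the BMP antagonist gremlin, ran from 10.77 to 12.04 in the MXD3 lines and from 10.77 to 10.96 in the controls, with MXD3 lines 2 and 5 highest. Its difference from the controls was 0.54 ± 0.29 (SE, adjusted p = 0.490, limma). CHRD, the BMP antagonist chordin, read 5.84, 5.28, 5.78, 5.75 and 5.26 in MXD3 lines 1 to 5, 6.15 and 5.86 in vector lines 1 and 2 and 5.82 in the parental cells. All 5 MXD3 lines lay below both vector lines. CHRD differed by -0.36 ± 0.18 from the 3 controls and was detected in 3 of 5 MXD3 lines and in all 3 controls. FSTL3 ran from 7.22 to 8.39 in the MXD3 lines and from 7.52 to 8.52 in the controls, where the parental cells were highest.

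Some LTBP proteins hold latent TGF-beta in the matrix, and none of the 4 LTBP genes tested had an unadjusted p below 0.05 in either comparison. LTBP4 read 9.56, 8.05, 8.84, 8.96 and 9.11 in MXD3 lines 1 to 5, 8.71 and 9.31 in vector lines 1 and 2 and 9.15 in the parental cells, with MXD3 line 1 highest and MXD3 line 2 lowest. LTBP3 ran from 8.56 to 9.83 in the MXD3 lines, with line 2 lowest, and from 8.87 to 9.32 in the controls. LTBP1 ran from 7.20 to 8.42 in the MXD3 lines and from 7.30 to 8.02 in the controls. For LTBP2 the ranges were 7.47 to 8.18 in the MXD3 lines and 7.30 to 8.50 in the controls, with vector line 1 the highest array.

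Of the 8 SMAD genes, SMAD3 had a higher and SMAD1 a lower mean in the MXD3 lines. SMAD3, a mediator of TGF-beta and activin signals, read 12.22, 12.43, 12.28, 12.50 and 11.73 in MXD3 lines 1 to 5, 11.83 and 11.47 in vector lines 1 and 2 and 10.91 in the parental cells. The first 4 MXD3 lines exceeded every control, while the array labelled line 5 lay between the vector lines. The difference was 0.83 ± 0.23 (SE) from the 3 controls (adjusted p = 0.288, limma) and 0.58 ± 0.22 from the vector lines (adjusted p = 0.609). Without line 5 these differences were 0.95 and 0.71.

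SMAD1, a mediator of BMP signals, read 5.98, 5.82, 6.10, 6.03 and 5.87 in MXD3 lines 1 to 5, 6.49 and 6.35 in vector lines 1 and 2 and 6.63 in the parental cells. All 5 MXD3 lines lay below all 3 controls, on a probe detected on all 8 arrays. The difference was -0.53 ± 0.13 (SE) from the 3 controls (adjusted p = 0.283, limma) and -0.46 ± 0.14 from the vector lines (adjusted p = 0.587). Another SMAD1 probe, detected on 3 arrays, gave 0.23 and 0.22, so the probes differed in direction. With the mean of both probes the differences were -0.15 and -0.12, and without background correction -0.19 and -0.16.

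The other 6 SMAD genes had unadjusted p-values above 0.05. SMAD4, the shared partner of receptor SMADs, had the narrowest range of the 46 genes, 0.25 over the 8 arrays. SMAD2 differed from the 3 controls by -0.072 ± 0.27 (SE), SMAD5 by 0.065 ± 0.14 and SMAD9 by 0.16 ± 0.27. SMAD6 and SMAD7 encode inhibitory SMADs that the pathway itself induces. SMAD7 read 10.08, 10.02, 10.12, 10.09 and 10.43 in MXD3 lines 1 to 5, 10.12 and 10.001 in vector lines 1 and 2 and 9.86 in the parental cells, and the array labelled MXD3 line 5 was highest. SMAD6 differed by -0.19 ± 0.19 from the 3 controls.

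The sequences just before the start of SMAD3, SMAD1 and FSTL1 are shown because these genes had an unadjusted p below 0.05 against the 3 controls and an entry in RefSeq's promoter table (GRCh38.p14). Each is the 250 bases upstream of the start listed first, on the gene's strand. SMAD3 and SMAD1 each had 5 starts listed and FSTL1 had 1, and which start these cells use was not tested. Capitals mark CACGTG, the E-box bound by MAX pairs, and GGCGCC, a GC-rich element that SMAD proteins are known to bind. SMAD3 is at chr15:67065352-67065601 (plus strand), SMAD1 at chr4:145481056-145481305 (plus strand) and FSTL1 at chr3:120450993-120451242 (minus strand).
SMAD3: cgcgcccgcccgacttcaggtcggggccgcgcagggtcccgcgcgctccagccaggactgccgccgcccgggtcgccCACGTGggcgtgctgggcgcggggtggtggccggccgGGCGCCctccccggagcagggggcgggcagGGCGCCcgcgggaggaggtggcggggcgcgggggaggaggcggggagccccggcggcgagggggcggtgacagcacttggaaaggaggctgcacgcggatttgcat
SMAD1: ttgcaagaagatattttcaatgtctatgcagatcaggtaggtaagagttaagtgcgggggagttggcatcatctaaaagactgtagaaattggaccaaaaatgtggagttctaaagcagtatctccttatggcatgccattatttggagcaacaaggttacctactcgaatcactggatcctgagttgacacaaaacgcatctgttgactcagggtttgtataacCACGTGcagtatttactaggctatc
FSTL1: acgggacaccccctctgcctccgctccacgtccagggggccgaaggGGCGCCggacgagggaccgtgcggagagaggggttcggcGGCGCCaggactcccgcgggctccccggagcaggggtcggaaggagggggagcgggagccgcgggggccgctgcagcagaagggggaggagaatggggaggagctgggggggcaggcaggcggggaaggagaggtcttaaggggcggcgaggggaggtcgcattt

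SMAD3 held 1 E-box and 2 GC-rich elements in this window, SMAD1 held 1 E-box and FSTL1 held 2 GC-rich elements. Both motifs read the same on either strand. Entries were found for 43 of the 49 genes, and none was found for BMP2, BMP7, INHBE, ACVRL1, NOG and SKI. CACGTG stood in 6 of the 43 windows, 14.0% (ACVR1B, SMAD1, SMAD3, SMAD9, TGFB2 and TGFB3), against 8.80% of 10058 tested genes and 6.34% of all 35116 entries. GGCGCC stood in 15 of 43, 34.9%, against 24.9% and 16.4%. Listed and tested genes were counted once, on the start listed first, while the 35116 entries count every listed start. The 43 windows include those of BMPR1A and BMPR1B, which were not among the tested genes. Of the 6 genes with CACGTG, SMAD3, SMAD9 and TGFB2 had positive and SMAD1, ACVR1B and TGFB3 negative differences from the 3 controls. A match describes the letters in the window and is not a binding site.

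ID genes encode inhibitors of basic helix-loop-helix factors, and ID1, ID2 and ID3 are textbook targets of BMP receptors. ID1 read 12.53, 12.08, 12.49, 12.28 and 12.36 in MXD3 lines 1 to 5, 12.45 and 12.47 in vector lines 1 and 2 and 13.18 in the parental cells. ID2 read 9.50, 9.63, 9.64, 9.33 and 9.84 in MXD3 lines 1 to 5, 9.74 and 9.61 in vector lines 1 and 2 and 10.42 in the parental cells. For both genes the MXD3 and vector lines overlapped, and the parental cells lay above all 7 stable lines. Against the vector lines ID1 differed by -0.11 ± 0.16 (SE) and ID2 by -0.090 ± 0.16 in the MXD3 lines. From the parental array ID1 differed by -0.83 ± 0.21 in the MXD3 lines and -0.72 ± 0.23 in the vector lines (adjusted p = 0.193 and 0.539, limma). The same differences of ID2 were -0.83 ± 0.22 and -0.74 ± 0.24 (adjusted p = 0.197 and 0.539). With 1 parental array, its spread was taken to be that of the other groups.

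A dimmer probe of ID1, also detected on all 8 arrays, read 6.66, 6.21, 6.72, 5.76 and 6.41 in MXD3 lines 1 to 5, 6.21 and 6.85 in vector lines 1 and 2 and 8.63 in the parental cells. It too placed the parental cells above all stable lines. The mean of the stable lines minus the parental array was -2.22 on this probe and -0.80 on the brighter one. With the mean of both probes the MXD3 lines differed from the parental array by -1.55 and the vector lines by -1.41.

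The upstream windows of ID1 and ID2 are shown since both were high in the parental cells. They are chr20:31605039-31605288 and chr2:8681806-8682055, both on the plus strand (GRCh38.p14, RefSeq). Neither CACGTG nor GGCGCC is in these 250 bases, so no letter is in capitals.
ID1: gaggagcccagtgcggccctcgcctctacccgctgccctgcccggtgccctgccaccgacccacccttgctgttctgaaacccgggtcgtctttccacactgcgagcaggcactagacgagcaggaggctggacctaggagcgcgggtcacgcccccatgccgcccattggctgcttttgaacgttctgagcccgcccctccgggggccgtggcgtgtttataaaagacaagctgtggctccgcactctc
ID2: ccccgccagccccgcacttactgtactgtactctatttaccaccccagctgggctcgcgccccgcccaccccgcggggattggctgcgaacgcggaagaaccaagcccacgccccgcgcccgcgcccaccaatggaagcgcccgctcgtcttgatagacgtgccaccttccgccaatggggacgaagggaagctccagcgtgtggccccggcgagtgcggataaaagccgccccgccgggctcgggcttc

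ID3 read 13.47, 13.36, 13.78, 13.69 and 13.40 in MXD3 lines 1 to 5, 13.45 and 13.58 in vector lines 1 and 2 and 13.74 in the parental cells, and MXD3 line 3 was the highest array. ID4 read 6.62, 5.83, 5.29, 5.39 and 6.35 in MXD3 lines 1 to 5, 5.55 and 6.74 in vector lines 1 and 2 and 6.35 in the parental cells. ID4 was detected in 3 of 5 MXD3 lines, 1 of 2 vector lines and the parental cells. Neither gene placed the parental cells outside the stable lines.

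**Figure D4:**
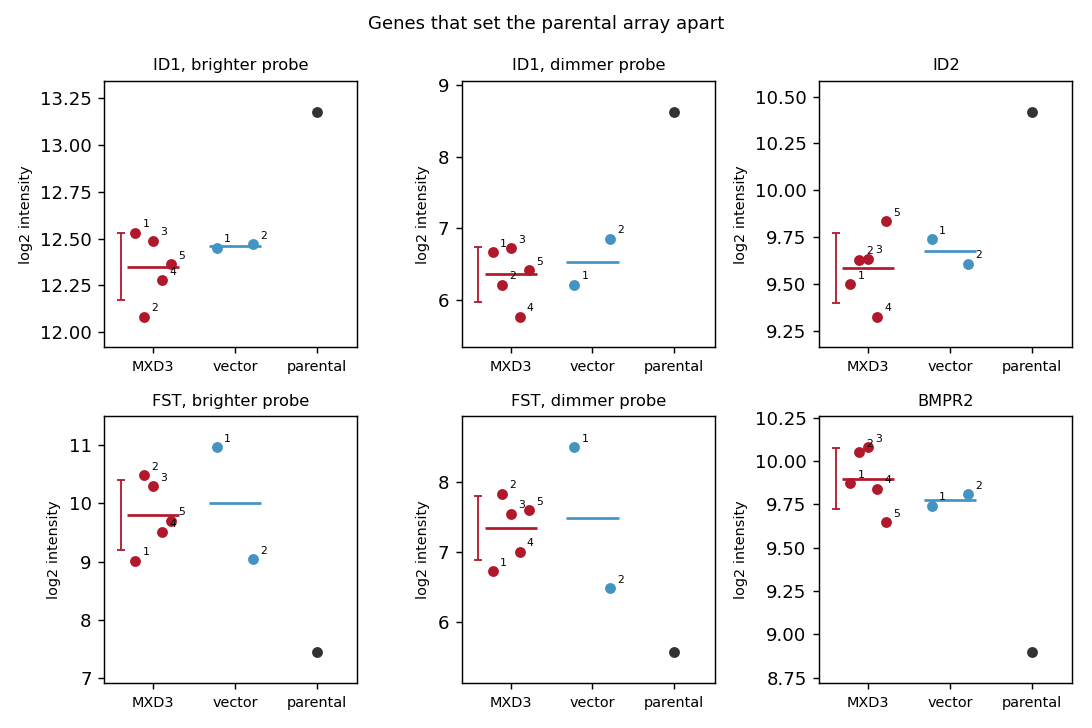
Log2 intensity of ID1 (2 probes), ID2, FST (2 probes) and BMPR2, 1 point per array with its line number, for the 5 MXD3 lines, the 2 vector lines and the parental cells. Horizontal lines are group means and the bar at the left is ± 1 SD of the MXD3 lines. The parental cells lie above all stable lines for ID1 and ID2 and below all of them for FST and BMPR2.

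The stable lines were also set against the parental array. In the MXD3 lines 9 of 46 genes had an unadjusted p below 0.05 (BMP7, BMPR2, BAMBI, FST, FSTL1, SMAD1, SMAD3, ID1 and ID2), 19.6% against 12.9% of all genes. In the vector lines 5 did (ACVR2A, BMPR2, FST, ID1 and ID2), 10.9% against 7.1%. None of the 46 passed limma's adjusted threshold, which 0.00822% of all genes, 1 gene, passed in each comparison. By direction, 5 genes were higher and 4 lower in the MXD3 lines (backgrounds 7.42% and 5.47%), and 3 higher and 2 lower in the vector lines (backgrounds 4.42% and 2.68%). Both comparisons share the parental array. That array lay outside the range of the 7 stable lines for 20 of 46 genes, 43.5% against 34% of all genes. It was above them for 8, 17.4% against 16.7%, and below them for 12, 26.1% against 17.3%.

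BMPR2, the type II receptor of BMPs, read 9.87, 10.05, 10.08, 9.84 and 9.65 in MXD3 lines 1 to 5, 9.74 and 9.81 in vector lines 1 and 2 and 8.90 in the parental cells. The 7 stable lines lay close together and the parental cells below them. The difference from the parental array was 1.001 ± 0.21 (SE) in the MXD3 lines (adjusted p = 0.162, limma) and 0.88 ± 0.23 in the vector lines (adjusted p = 0.452). FST differed by 2.36 ± 0.70 and 2.56 ± 0.78 (adjusted p = 0.226 and 0.512). The difference of the vector lines was 1.60 without vector line 1 and 3.53 without vector line 2. A dimmer FST probe also placed the parental cells lowest, with stable lines from 6.47 to 8.50 and the parental cells at 5.56. BAMBI, a decoy receptor without a kinase, read 12.50, 12.16, 12.24, 12.46 and 12.85 in MXD3 lines 1 to 5, 12.32 and 12.30 in vector lines 1 and 2 and 11.73 in the parental cells. ACVR2A read 6.23, 6.23, 6.75, 6.49 and 6.44 in MXD3 lines 1 to 5, 6.24 and 6.93 in vector lines 1 and 2 and 5.76 in the parental cells. The parental cells were the lowest array for both genes.

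Of the nuclear co-repressors, SKI and SKIL bind SMAD complexes and TGIF1 is a homeobox co-repressor of SMAD2. From the 3 controls SKI differed by 0.30 ± 0.17 (SE), SKIL by -0.053 ± 0.17 and TGIF1 by 0.13 ± 0.14. The probes of TGIF1 placed the parental cells differently. The brightest read 10.21 in the parental cells, the lowest of the 8 arrays, while the probes detected on 8 and on 4 arrays read 7.27 and 6.77 there, the highest of the 8.

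Co-variation over the 8 arrays was computed for 12 pairs of genes, with two-sided tests. The MXD3, vector and parental arrays were pooled and permuted together, so differences between these groups are part of each r and its p-value. ID1 and ID2 had Pearson's r = 0.804 (exact permutation p = 0.0501, adjusted 0.239) and Spearman's rho = 0.286 (exact permutation p = 0.501, adjusted 0.644). Without the parental cells and MXD3 line 2 together, r was 0.245, and each was not left out alone. The parental cells had the highest value of both genes, while MXD3 line 2 was the lowest array for ID1 only. TGFB2 and SMAD7 had r = 0.695 (exact permutation p = 0.0488, adjusted 0.239) and rho = 0.571 (exact permutation p = 0.151, adjusted 0.513), with r = 0.439 without MXD3 lines 3 and 5. No pair passed after adjustment over the 12.

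Other genes of the pathway were counted in 7 lists, read against the backgrounds of 6.13% higher and 5.57% lower at an unadjusted p below 0.05 against the 3 controls, and of 3.83% higher and 3.91% lower against the vector lines. None of their genes passed limma's adjusted threshold. Genes that hold or release latent TGF-beta gave 3 higher and 0 lower of 18 tested, with a median difference of 0.24. They were FBN1, a fibrillin that anchors latent TGF-beta in the matrix (0.67 ± 0.25 SE), the integrin gene ITGB8 (0.92 ± 0.40) and the thrombospondin gene THBS1 (0.74 ± 0.33). Against the vector lines the list gave 0 higher and 0 lower, with a median of 0.15.

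Intracellular regulators of SMADs gave 2 higher and 1 lower of 26 tested, with a median of 0.14, and 2 higher and 0 lower against the vector lines. NEDD4L, a ubiquitin ligase that targets activated SMADs, read 8.58, 9.05, 9.002, 8.82 and 9.17 in MXD3 lines 1 to 5, 8.13 and 8.22 in vector lines 1 and 2 and 7.60 in the parental cells. All 5 MXD3 lines lay above all 3 controls, a difference of 0.94 ± 0.19 (SE, adjusted p = 0.255, limma) and of 0.75 ± 0.18 from the vector lines (adjusted p = 0.587). PPP1R15A, a phosphatase subunit, differed by 0.71 ± 0.22 and the deubiquitinase gene UCHL5 by -0.35 ± 0.12 from the 3 controls. In this list the MXD3 lines did not overlap the 3 controls for NEDD4L and PPP1R15A (higher) and UCHL5 (lower). Of all genes, 3.84% did so with the MXD3 lines higher and 4.14% with them lower. The lists below of TGF-beta target, BMP target and non-SMAD genes also held genes without overlap.

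TGF-beta target genes gave 3 higher and 2 lower of 30 tested, with a median of 0.14, and 1 higher and 1 lower against the vector lines. The fibronectin gene FN1 differed from the 3 controls by 0.85 ± 0.32 (SE), the CDK inhibitor gene CDKN1A by 0.78 ± 0.29 and the repressor gene ZEB2 by 0.65 ± 0.25, while the collagen gene COL3A1 differed by -1.60 ± 0.57 and the repressor gene SNAI1 by -0.97 ± 0.38. Of 9 fibroblast and mesenchymal markers, COL3A1 among them, 5 to 9 were detected per array in the MXD3 lines and 8 to 9 in the controls. The mean deviation of that marker list ran from -0.842 to 0.354 in the MXD3 lines and from 0.0205 to 0.566 in the controls, and its part in these differences was not tested. BMP target genes gave 0 higher and 1 lower of 15 tested, the homeobox gene DLX5 at -0.54 ± 0.22, with a median of 0.082, and 0 higher and 0 lower against the vector lines.

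The non-SMAD branch gave 1 higher and 0 lower of 22 tested, the ubiquitin ligase gene TRAF6 at 0.32 ± 0.13 (SE), and 0 higher and 0 lower against the vector lines. Other secreted antagonists and co-receptors gave 1 higher and 0 lower of 8, CRIM1 at 0.70 ± 0.29. Against the vector lines they gave 1 higher and 0 lower, the BMP co-receptor gene RGMA at 0.69 ± 0.20. For RGMA the parental cells read 7.66, inside the MXD3 range of 7.25 to 7.89, while both vector lines lay below that range. Its difference from the 3 controls was 0.40 ± 0.24. Other ligands gave 0 higher and 0 lower of 8, where BMP1, a protease that cleaves procollagens, differed by 0.45 ± 0.22 and BMP5 by -1.22 ± 0.64. BMP5 read 5.46, 6.16, 4.95, 5.90 and 8.24 in MXD3 lines 1 to 5, 7.98 and 7.37 in vector lines 1 and 2 and 6.73 in the parental cells. MXD3 lines 1 to 4 lay below all 3 controls for BMP5, and the array labelled line 5 lay above them. BMP5 was detected in only 3 of 5 MXD3 lines and in all 3 controls, so its lowest values are near background.

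The median range over the 8 arrays was 1.08 for the 46 signalling genes and 0.778 for all 12162 genes. It was above 1.5 in 5 genes (FST, INHBE, TGFBR2, SMAD3 and LTBP4), 10.9% against 9.15% of all genes. Just inside that limit was LTBP4 at 1.52 and just outside it ID4 at 1.45.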

How the data were processed

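Illumina bead arrays of 8 samples were used. The authors deposited non-normalized probe intensity values with a detection p-value for each probe and array, and a value table of processed intensity, per the file headers. BeadStudio is named without a version in the submitters' processing notes, and the deposited table proved a straight-line rescaling of the same arrays. Intensities were background-corrected and quantile-normalized with neqc (offset 16, negative controls inferred from detection p-values) in limma 3.58.1 (R 4.3.3). Probes detected at p below 0.05 on at least 2 arrays and with 1 gene symbol were kept, and each gene was represented by its probe of highest mean. Linear models with moderated statistics were fitted over 12162 genes, with Benjamini-Hochberg adjustment over all of them and a threshold of 0.05, for MXD3 lines against the 3 controls (2 groups) and for MXD3, vector and parental samples (3 groups). The fit was tested on simulated data. The number of arrays limits the precision.

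Values per array were given for genes with an unadjusted p below 0.05 in 1 of the main comparisons, without overlap with the 3 controls or with a range above 1.5, plus ID1 to ID4, SMAD7, BMP4 and TGFB2. BMPR2, CHRD, BAMBI and ACVR2A were added after their values were seen. The dimmer BMP6 probe, NEDD4L and BMP5 were also given per array outside this rule. Other pathway genes were named at an unadjusted p below 0.05, at most 5 per list, or the 2 with the smallest p. The members and lists were chosen with earlier results of these data known. Alternatives covered background correction, scaling, filters, probe choice, leaving out each array and a replicate block.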

Additional observations from a re-analysis of the deposited data

Results flagged for a closer look

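SMAD7, the inhibitory SMAD, had 1 MXD3 line far from the others. The array labelled MXD3 line 5 read 10.43 on the log2 scale, the next highest MXD3 line 10.12 and the lowest 10.02. The gap to the nearest line was 0.748 of the group's range, above Dixon's critical value of 0.71 for 5 samples. Of 46 genes tested in the MXD3 lines this was the 1 that stood out, and chance picks out about 1 in 20 groups.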

How the results depend on the processing

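For the 17 signalling genes refitted under the 16 alternatives, no difference passed an adjusted p of 0.05. The count of all genes past that threshold for MXD3 lines against the parental array was 1, and 3 without background correction, 3 on the deposited processed values and 7 with genes detected on all 8 arrays. Against the 3 controls it was 0 to 1 with each array left out, and 0 to 1 for vector lines against the parental array. Signalling genes with an unadjusted p below 0.05 numbered 5 to 8 of 46 (10.9% to 17.4%) against the 3 controls with each array left out. The share of all genes there ran from 7.75% to 14.3%. Against the vector lines, with each MXD3 line left out, such signalling genes numbered 2 to 6 (4.35% to 13%). The share of all genes there ran from 6.38% to 10.3%. Against the vector lines such genes were 3 of 46 (6.52%, all genes 8.2%) without background correction and 3 of 46 (6.52%, all genes 7.53%) with median scaling. With the replicate block they were 0 of 46 (0%, all genes 2.39%). That block compares only MXD3 lines 1 and 2 with vector lines 1 and 2. The other MXD3 lines share no number with a vector line. Over those lines alone, the replicate block turned the difference from the vector lines of ID3 to -0.11, ID4 to 0.084, SMAD7 to -0.011 and TGFB2 to -0.11. Deviations of same-numbered MXD3 and vector lines correlated at -0.309 and -0.179. The deviations of 2 vector lines from their mean mirror each other, so these values cannot tell whether line numbers pair the samples. Leaving out each array turned signs for these genes, with ranges against the 3 controls of -0.20 to 1.56 for FST, -0.12 to 0.020 for ID3 and -0.33 to 0.060 for LTBP4. Against the vector lines they were -1.17 to 0.76 for FST, -0.044 to 0.085 for ID3, -0.84 to 0.35 for ID4, -0.41 to 0.19 for LTBP4 and -0.43 to 0.94 for TGFBR2. FST was negative against the controls without the parental cells and positive against the vector lines without vector line 1. The cause was not tested. A slide block was not run, since the headers name no slides. The spread of 2 vector lines and 1 parental array limits what these arrays can show.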
